A study of Homo sapiens with 42 samples.

Results

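The insulin-like growth factor (IGF)-binding proteins are a family of secreted proteins encoded by 7 genes, IGFBP1 to IGFBP7. The members were taken by their symbols, 7 of the 60609 genes listed in the count tables, and all 7 passed the filter on low counts in each fit. RNA-seq had given 42 libraries of 786-O, a clear cell renal cell carcinoma line that lacks the VHL protein, so that HIF-2α is not degraded, and that has no functional HIF-1α. The labels name no hypoxia treatment. The libraries formed 14 groups of 3 biological replicates in 2 batches that differed in RNA extraction and library kit, and each line was compared with others of its own batch. Total counts ran from 42377599 to 101186554 per library in the 27 libraries of batch 1 and from 76366799 to 109642159 in the 15 of batch 2.

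All groups shared the 786-O background, including its own HIF-2α gene, which is the tagged one in HIF-2α KIN. Batch 1 held wild-type cells (WT), a clone with a V5-HaloTag knocked in at both alleles of the HIF-1β gene (HIF-1β KIN, clone A21), and a clone with the same tag on HIF-2α (HIF-2α KIN, clone A31). Each knock-in group is thus 1 clone. The other 6 groups of batch 1 were WT cells carrying a stable V5-Halo-tagged transgene under the L30 promoter, which drives weak expression. These were HIF-1α, its DNA-binding mutant HIF-1α R30E, its dimerization mutant HIF-1αDM (R170A and V191D), HIF-2α, its DNA-binding mutant HIF-2α R27E and its dimerization mutant HIF-2αDM (R171A and V192D). Batch 2 held WT, HIF-1α and HIF-2α again, and 2 chimeras made by the same route. In HIF-2α/1α the structured portion (DNA-binding and dimerization domains) came from HIF-2α and the intrinsically disordered region (IDR) from the other paralogue. HIF-1α/2α was the reverse swap. The transgene lines were made by PiggyBac transfection and puromycin selection, whereas WT cells were unmodified. No RNA-seq group carried the tag or vector alone. In comparisons with WT, the transgene protein cannot be told apart from transfection and selection.

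IGFBPs bind IGF1 and IGF2 outside the cell, carry them, and set how much ligand reaches the IGF1 receptor. IGFBP1 to IGFBP6 bind with high affinity, whereas IGFBP7 binds IGFs weakly and is known mainly as a matrix-associated protein. Hypoxia and HIF are known to raise transcription of some members, IGFBP1 and IGFBP3 among them, and proteases such as the pappalysins cleave several of them and release the ligand.

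The targeted HIF genes were read first, since they check the labels. HIF1A, the HIF-1α gene, had 242 ± 13.5 TMM-normalised counts in WT of batch 1 (SD, n = 3), 3038 ± 233 in HIF-1α, 2512 in HIF-1α R30E and 2250 in HIF-1αDM. In batch 2 it had 293 in WT, 13161 in HIF-1α, 9625 in HIF-2α/1α and 9734 in HIF-1α/2α. EPAS1, the HIF-2α gene, had 14498 ± 2022 in WT of batch 1, 44694 in HIF-2α, 56676 in HIF-2α R27E and 48666 in HIF-2αDM. In the HIF-1α lines of that batch EPAS1 had 22951 in HIF-1α, above WT without overlap, 10322 in HIF-1α R30E and 11463 in HIF-1αDM. In batch 2 EPAS1 had 12621 in WT, 16360 in HIF-1α, 20745 in HIF-2α/1α, 42541 in HIF-2α and 51430 in HIF-1α/2α. One label gives HIF-2αDM a HIF-1α genotype while its title names HIF-2α, and the title was followed. HIF1A was at 193 in that group. RNA of each gene that a transgene carries was thus above WT in its line, but unequally. Gene counts cannot tell transgene reads from endogenous ones. HIF1A was also higher than in WT in the HIF-2α line, at 910 ± 280 in batch 1 and 936 in batch 2. What these differences in HIF RNA contribute to the IGFBP values was not tested. The renal markers PAX8 (205 to 520 CPM, counts scaled to library size) and KRT8 (763 to 2524 CPM) were present in all 42 libraries, CA9 ran from 0 to 70.7 CPM, and markers of leukocytes, endothelium, hepatocytes and adipocytes summed to at most 0.661 CPM, with CD3E and ADIPOQ at 0. In batch 1, each library's deviation from its group mean (log2 CPM, genes tested) was correlated with that of the WT library of the same number. The mean r was 0.457 for libraries numbered 3, and 0.180 and 0.158 for those numbered 1 and 2. Without the 9 libraries numbered 3 the members gave 14 calls of 56 against WT in place of 17. Between functional and mutant HIF-α or HIF-2α and HIF-1α they gave 16 of 35 in place of 13.

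In unmodified 786-O cells the family was dominated by IGFBP3, IGFBP7 and IGFBP6. Compared per length (RPKM, TMM-scaled reads per kilobase of exon, scaled to library size), IGFBP3 stood at 100.02 ± 21.7 in WT of batch 1 and 63.2 ± 12.2 in batch 2. IGFBP7 stood at 56.0 ± 16.0 and 37.6 ± 2.35 RPKM, and IGFBP6 at 40.9 ± 2.91 and 17.3 ± 1.84. A second tier was formed by IGFBP1, at 5.35 ± 0.414 and 3.31 ± 0.237 RPKM, and IGFBP4, at 3.19 ± 0.656 and 2.29 ± 0.184. IGFBP5 and IGFBP2 were close to silent, with 12 and 4 reads summed over the 3 WT libraries of batch 1, and 16 and 7 reads in batch 2. The same order held in both batches. The SDs of IGFBP7 and IGFBP6 overlapped in batch 1 but not in batch 2, and those of IGFBP5 and IGFBP2 overlapped in both.

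**Figure D1:**
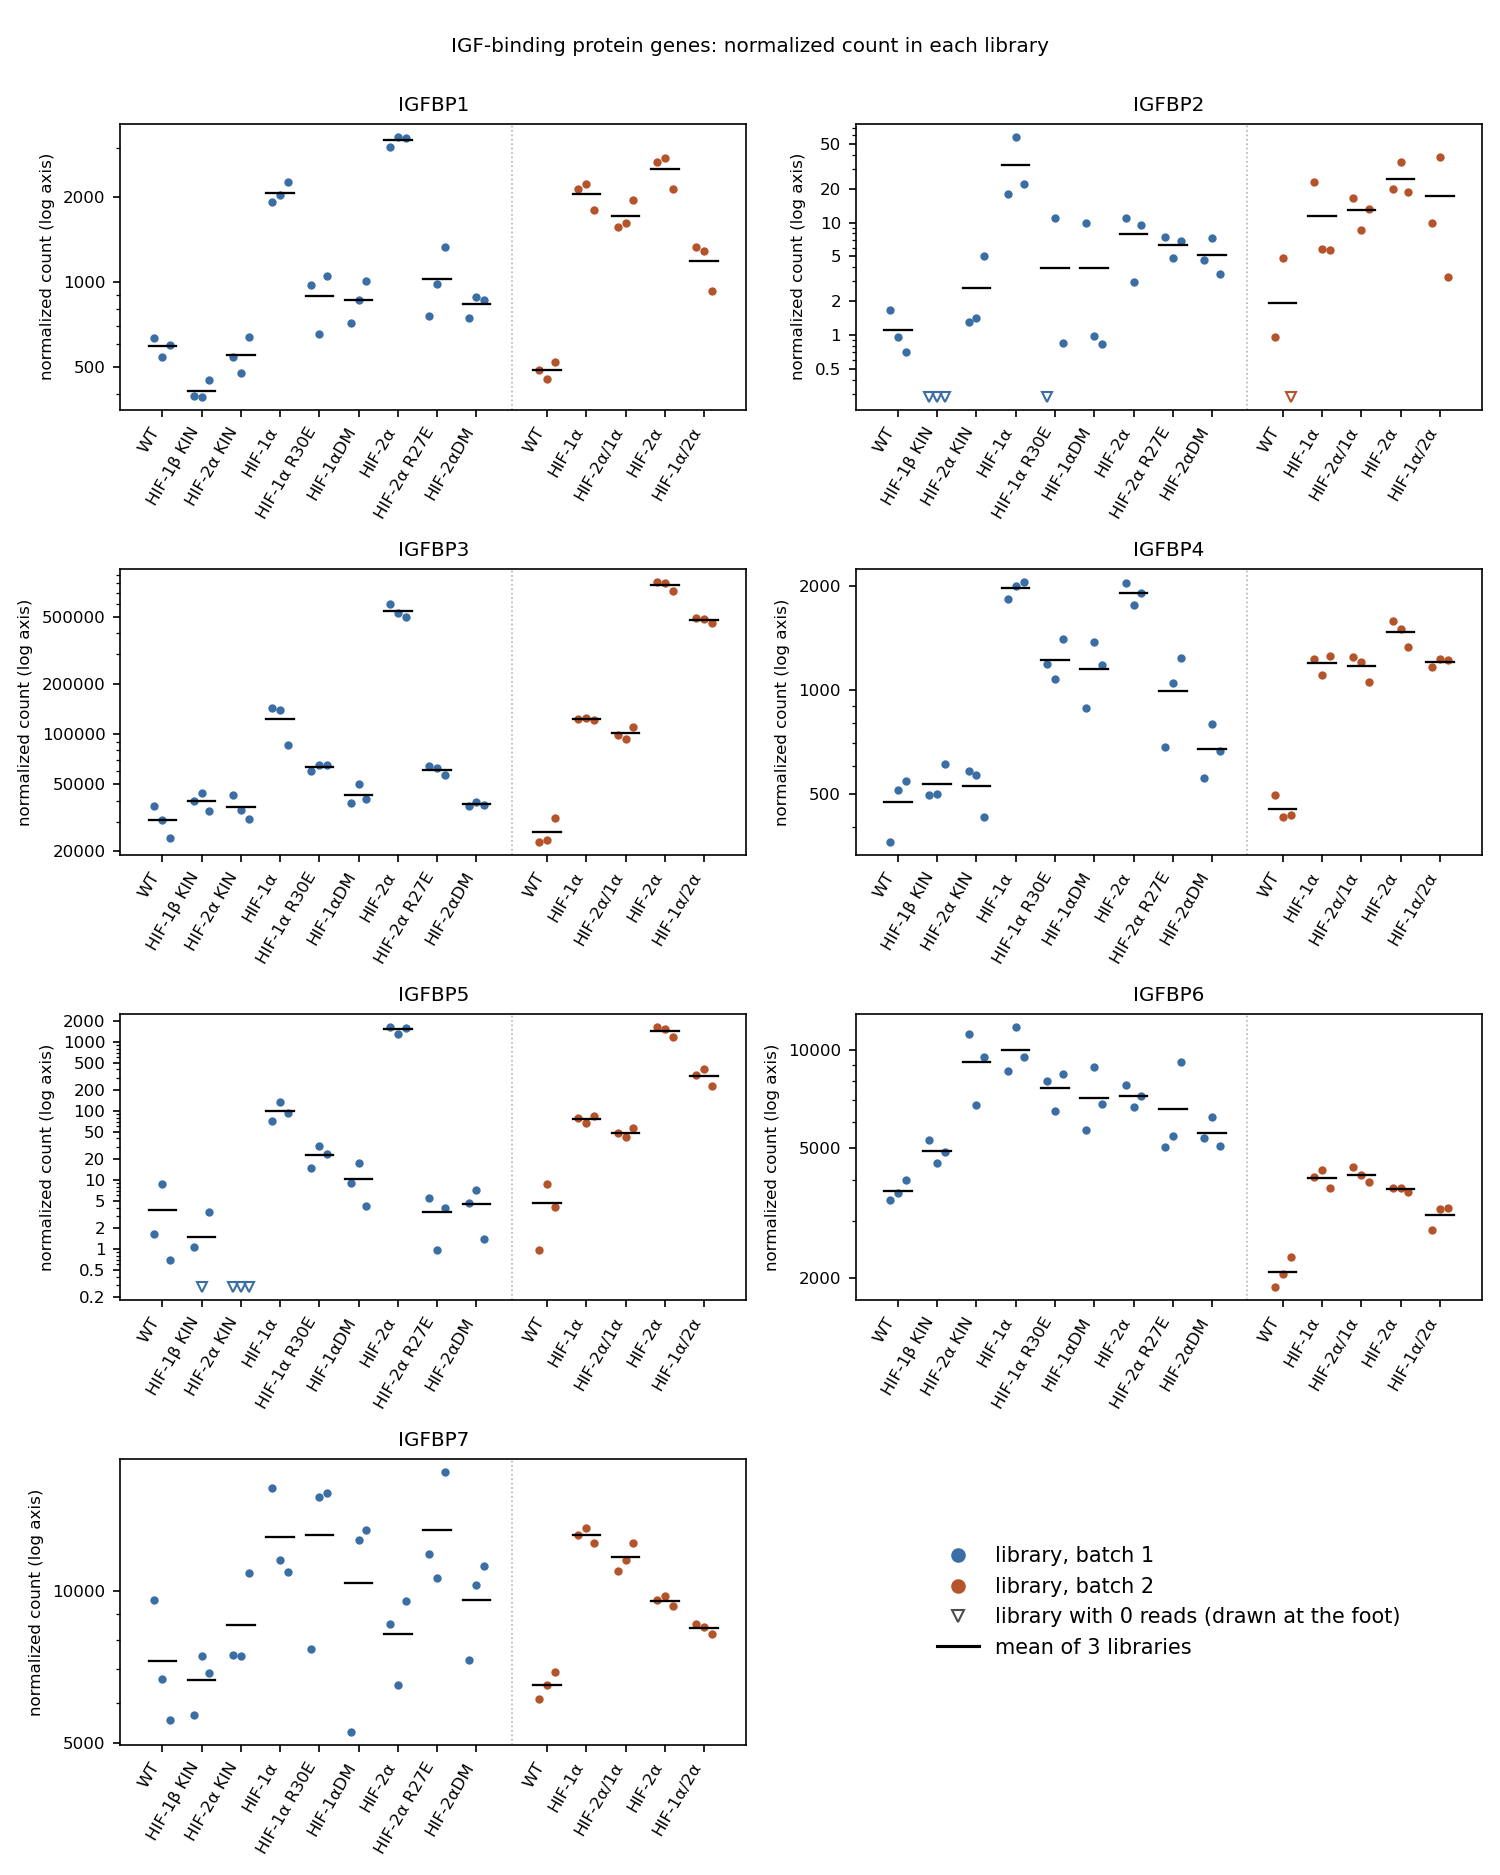
TMM-normalised counts of each IGFBP gene (log axis) in each of the 42 libraries, one panel per gene, with groups along the horizontal axis, batch 1 in blue, batch 2 in orange, bars at the means of 3 libraries and open triangles for libraries with 0 reads. IGFBP3 and IGFBP5 stand highest in the HIF-2α lines of both batches, while IGFBP7 shows groups that overlap in batch 1.

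A gene was called where edgeR's quasi-likelihood test gave an adjusted p (Benjamini-Hochberg over all genes of the fit) of at most 0.01 and the fold change was at least 2. Functional HIF-α was accompanied by higher RNA of most members. In batch 1, 6 of 7 members were called higher in HIF-1α, against 3.27% of all 23410 genes. In HIF-2α 4 of 7 were called higher, against 3.78%. Among 28724 genes tested in batch 2, 4 of 7 members were called higher in HIF-1α (3.9% of all genes) and 4 of 7 in HIF-2α/1α (2.98%). In HIF-2α 5 of 7 were called higher (5.45%) and in HIF-1α/2α 5 of 7 (5.1%). No member was called lower in any comparison with WT. The median log2 change of the 7 members was 2.01 for HIF-1α and 2.44 for HIF-2α in batch 1, where the medians of all genes were -0.03 and -0.09. In batch 2 the members' medians were 2.09 and 2.38, beside 0.03 and 0.07 for all genes. These comparisons share their WT libraries within a batch, so their counts are not separate pieces of evidence.

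**Figure D2:**
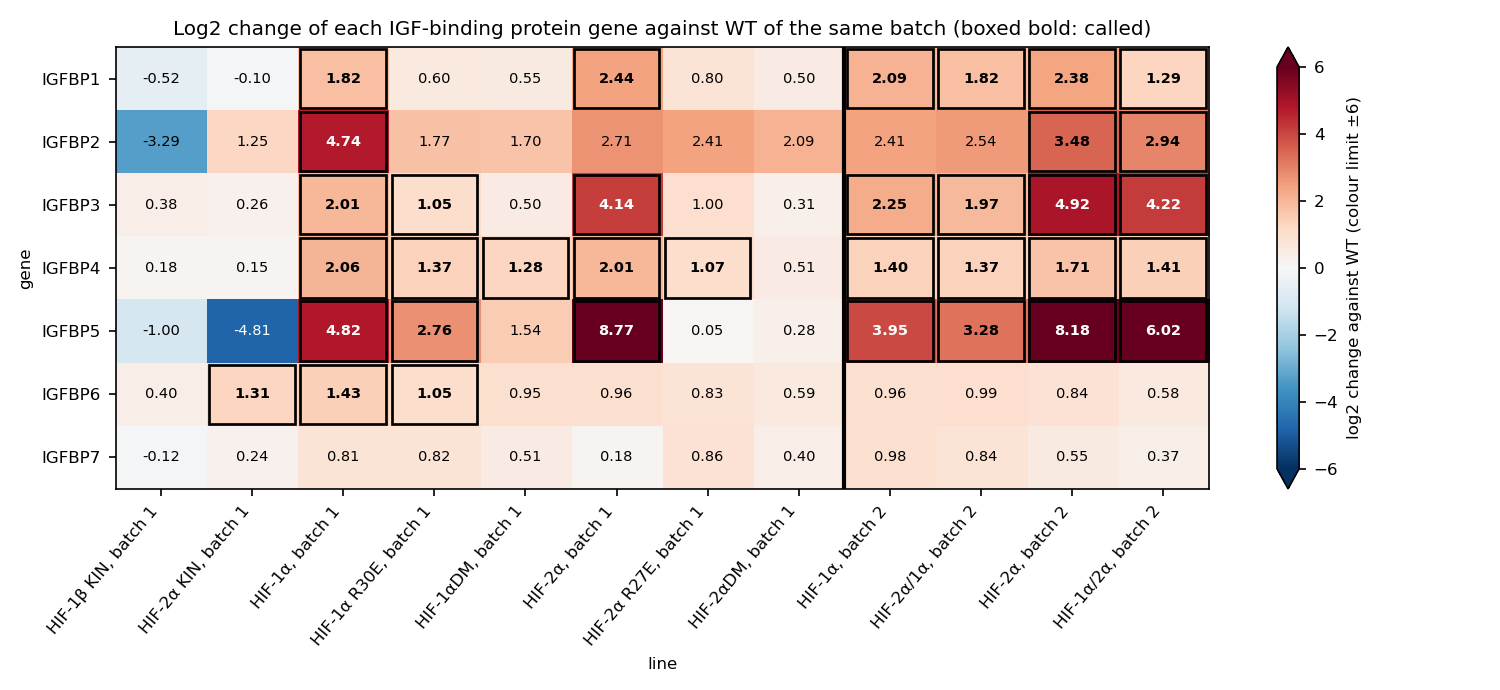
Log2 change of each IGFBP gene (rows) against WT of the same batch in each line (columns), printed in each cell and shown by colour, with called changes boxed and a vertical line between the batches. IGFBP3 reaches 4.14 to 4.92 and IGFBP5 6.02 to 8.77 in the 3 lines with a non-mutant transgene that carries the HIF-2α IDR. The values of IGFBP2 in HIF-1β KIN and IGFBP5 in HIF-2α KIN come from groups with 0 reads and are no fold estimates.

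IGFBP3, the main IGF carrier of serum, which holds IGFs in a ternary complex with the acid-labile subunit, had the largest share of the family's RNA per length and rose with each functional HIF-α. It lies at chr7:45912245-45921874 on the minus strand of hg38. In batch 1 the WT libraries held 37318, 30777 and 23981 normalised counts, the HIF-1α libraries 143660, 140290 and 85855, and the HIF-2α libraries 597510, 527260 and 499510. The 3 groups did not overlap, and the lowest HIF-2α library was above the highest HIF-1α library. IGFBP3 was 4.02-fold higher in HIF-1α than in WT (log2 2.01, SE 0.20, adjusted p = 7.7112e-08) and 17.6-fold higher in HIF-2α (log2 4.14, SE 0.22, adjusted p = 1.5702e-12). HIF-2α exceeded HIF-1α by 2.13 on the log2 scale (SE 0.20, adjusted p = 4.9637e-08).

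The same order was measured for IGFBP3 in batch 2. The WT libraries held 22616, 23334 and 31628 normalised counts, the HIF-1α libraries 122510, 124310 and 121330, and the HIF-2α libraries 816720, 804780 and 719130. Groups were again fully apart, with HIF-1α 4.75-fold (log2 2.25, SE 0.07, adjusted p = 4.5195e-28) and HIF-2α 30.2-fold above WT (log2 4.92, SE 0.08, adjusted p = 2.0087e-39). IGFBP3 took 0.0293% of all counted reads in WT of batch 2 and 0.850% in HIF-2α. Ranked by count among all 60609 genes, it stood 489th to 756th in the WT libraries and 2nd to 5th in the HIF-2α libraries. In batch 1 those ranks were 238 to 568 and 6 to 11.

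The 250 bases upstream of the RefSeq start of IGFBP3 are shown because this member moved with each functional HIF-α. The capitals mark the letters ACGTG or GCGTG, the 2 forms of the core of the hypoxia response element that HIF dimers bind, on either strand (a match on the minus strand reads as CACGT or CACGC). The strand shown is that of the gene, and the window is chr7:45921273-45921522, minus strand, GRCh38.p14.
IGFBP3: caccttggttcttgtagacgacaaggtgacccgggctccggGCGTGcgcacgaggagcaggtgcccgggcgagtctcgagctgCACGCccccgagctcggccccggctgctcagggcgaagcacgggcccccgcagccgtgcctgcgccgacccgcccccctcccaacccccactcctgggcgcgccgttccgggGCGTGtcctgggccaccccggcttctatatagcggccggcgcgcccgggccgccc
The 3 GCGTG matches start 209, 167 and 55 bases before the start site, the middle one on the other strand. Of 35116 RefSeq promoters of the same length, 43.2% held at least 1 match of either form and 19.4% at least 2. A match is a description of the letters and not a bound site.

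IGFBP5, which also forms the ternary complex and binds extracellular matrix and bone, went from near silence in WT to at least 1174 normalised counts in HIF-2α. It lies at chr2:216672105-216695549 on the minus strand of hg38, where the antisense RNA gene DIRC3-AS1 overlaps it. Counting ignored strand, so reads of the overlap cannot be told apart. The WT libraries of batch 1 held 1.65, 8.71 and 0.703 normalised counts, the HIF-1α libraries 70.8, 134.67 and 93.8, and the HIF-2α libraries 1662, 1325 and 1613. The 3 groups did not overlap. IGFBP5 rose by 4.82 on the log2 scale in HIF-1α (SE 0.61, adjusted p = 5.2257e-06) and by 8.77 in HIF-2α (SE 0.65, adjusted p = 5.5577e-10). WT held 12 reads in all. The summed reads were 471 times those of WT (95% counting interval 269 to 912) for HIF-2α and 29.2 times (16.5 to 57.2) for HIF-1α. These intervals cover counting error alone and not the spread between replicates. Leaving out 1 library moved the log2 change in HIF-2α between 8.23 and 10.2.

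Batch 2 gave IGFBP5 at 0.963, 8.89 and 4.01 normalised counts in WT, 80.1, 67.8 and 83.4 in HIF-1α, and 1628, 1534 and 1174 in HIF-2α. No library of one group reached into another. The log2 changes from WT were 3.95 (SE 0.34, adjusted p = 4.4568e-13) and 8.18 (SE 0.26, adjusted p = 3.1898e-28), and HIF-2α exceeded HIF-1α by 4.23 (SE 0.18, adjusted p = 4.0342e-23). In batch 1 that last difference was 3.95 (SE 0.49, adjusted p = 5.8582e-06). IGFBP3 and IGFBP5 were the 2 members called between HIF-2α and HIF-1α in each batch, where 2.4% of all genes in batch 1 and 3.78% in batch 2 were called in either direction. For comparison with IGFBP3, the matching window of IGFBP5, chr2:216695550-216695799, minus strand, GRCh38.p14, held no ACGTG or GCGTG on either strand.
IGFBP5: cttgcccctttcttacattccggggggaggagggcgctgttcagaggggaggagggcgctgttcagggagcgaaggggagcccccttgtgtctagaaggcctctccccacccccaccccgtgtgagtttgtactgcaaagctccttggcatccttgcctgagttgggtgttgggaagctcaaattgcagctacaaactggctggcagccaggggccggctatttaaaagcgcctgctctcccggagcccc
The RefSeq windows of IGFBP4 and IGFBP6 held no match either, and 1 of the 3 windows of IGFBP2 held a GCGTG at 132 bases before its start. No match says only that the letters are not in these 250 bases.

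IGFBP1, a liver-derived carrier that insulin lowers and fasting and hypoxia raise, lies tail to tail with IGFBP3, at chr7:45888360-45893660 on the plus strand of hg38, with 18.6 kb and no annotated gene between the pair. In batch 1 it had 631, 541 and 599 normalised counts in WT, 1934, 2033 and 2276 in HIF-1α, and 3033, 3294 and 3265 in HIF-2α. All HIF libraries stood above all WT libraries, with HIF-2α above HIF-1α. The log2 changes were 1.82 (SE 0.19, adjusted p = 1.9333e-07) and 2.44 (SE 0.20, adjusted p = 9.2495e-10), and the difference of 0.62 between HIF-2α and HIF-1α was not called (adjusted p = 0.051909). Batch 2 gave 488, 450 and 520 in WT, 2147, 2228 and 1808 in HIF-1α, and 2680, 2751 and 2135 in HIF-2α. Here the HIF-1α and HIF-2α libraries overlapped, and each group was called above WT (log2 2.09 and 2.38, adjusted p = 4.0414e-20 and 1.7214e-22).

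IGFBP4, an inhibitory binding protein that the protease PAPPA cleaves, sits at chr17:40443450-40457725 on the plus strand. It had 362, 514 and 543 normalised counts in WT of batch 1, 1838, 2008 and 2061 in HIF-1α, and 2044, 1762 and 1908 in HIF-2α. Both transgenes stood clear of WT and overlapped each other, with log2 changes of 2.06 (SE 0.21, adjusted p = 1.3264e-07) and 2.01 (SE 0.21, adjusted p = 1.0469e-07). The difference between them was -0.05 (95% interval -0.45 to 0.35), and 0.0049 without HIF-2α replicate 2. In batch 2 the WT libraries held 494, 429 and 434, the HIF-1α libraries 1231, 1101 and 1252, and the HIF-2α libraries 1587, 1507 and 1330. IGFBP4 was called in both lines, at log2 1.40 and 1.71 (adjusted p = 1.1553e-16 and 5.8638e-20), and HIF-2α lay above HIF-1α by 0.30 without being called.

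IGFBP2, a carrier that also binds integrins, lies at chr2:216632828-216664436 on the plus strand, with 7.67 kb and no annotated gene between its end and that of IGFBP5. It was barely detected. The WT libraries of batch 1 held 2, 1 and 1 reads and those of batch 2 held 1, 6 and 0. HIF-1α of batch 1 held 19, 42 and 24 reads, which is 27.1 times the WT reads (95% counting interval 10.2 to 102), and IGFBP2 was called there (log2 4.74, SE 1.07, adjusted p = 0.0048043). That call was lost when HIF-1α replicate 2 (adjusted p = 0.036007) or any 1 of the 3 WT libraries (0.022192 to 0.034374) was left out. In batch 2, HIF-2α held 20, 30 and 16 reads, 11.3 times WT (5.20 to 29.2), and was called (log2 3.48, SE 0.83, adjusted p = 0.00061688). HIF-1α/2α held 12, 32 and 3 reads, overlapped WT, and was called at log2 2.94 (adjusted p = 0.0042075), which fell to 1.65 (adjusted p = 0.18358) without its replicate 2. Leaving out WT replicate 1 or 3 also lost it (log2 2.63 and 2.43, adjusted p = 0.026781 and 0.028751). At this depth the size of any change in IGFBP2 is known only within these wide intervals, which cover counting error alone.

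IGFBP6, which prefers IGF2 over IGF1, lies at chr12:53097436-53102345 on the plus strand and was among the members with high levels in every group. In batch 1 it had 3464, 3652 and 3983 normalised counts in WT, 8602, 11747 and 9521 in HIF-1α, and 7771, 6687 and 7196 in HIF-2α. WT was the lowest of the 9 groups and overlapped none of them. The change was called for HIF-1α (log2 1.43, SE 0.21, adjusted p = 2.9285e-05), whereas HIF-2α at log2 0.96 (adjusted p = 0.00179) stayed just under the fold limit and passed it without WT replicate 3 (1.02) or HIF-2α replicate 2 (1.02). In batch 2 the means were 2085 ± 221 in WT, 4055 ± 257 in HIF-1α and 3743 ± 56.7 in HIF-2α. The log2 changes of 0.96 and 0.84 had small adjusted p (7.6765e-15 and 1.7581e-13) and missed the fold limit, which HIF-1α passed without WT replicate 3 (1.04) or its own replicate 3 (1.01).

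IGFBP7, the low-affinity, matrix-associated member, lies at chr4:57030773-57110385 on the minus strand, where POLR2B, UBE2CP3 and IGFBP7-AS1 overlap its span. Reads of an overlap cannot be told apart without strand. Its replicates were wide apart in batch 1, with 9563, 6677 and 5548 normalised counts in WT and 15965, 11477 and 10878 in HIF-1α, and it was called in no comparison of that batch (log2 0.81 for HIF-1α, adjusted p = 0.10588, and 0.18 for HIF-2α, adjusted p = 0.7608). Batch 2 was tight, at 6506 ± 406 in WT, 12862 ± 427 in HIF-1α, 11625 ± 742 in HIF-2α/1α, 9545 ± 202 in HIF-2α and 8424 ± 211 in HIF-1α/2α. Those 5 groups did not overlap. The log2 changes from WT were 0.98, 0.84, 0.55 and 0.37, with adjusted p from 7.5232e-19 to 3.3595e-07, and each was under 2-fold. HIF-1α passed the fold limit when WT replicate 3 (1.03) or HIF-1α replicate 3 (1.01) was left out. IGFBP7 was the member for which HIF-2α stood below HIF-1α in both batches without overlap, with log2 differences of -0.64 (adjusted p = 0.30341) in batch 1 and -0.43 (adjusted p = 2.6485e-08) in batch 2, neither called.

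The DNA-binding and dimerization mutants address whether a functional HIF dimer on DNA is needed. HIF-1α exceeded HIF-1α R30E in 1 of 7 members (1.75% of all genes were called in either direction) and HIF-1αDM in 3 of 7 (1.37%). HIF-2α exceeded HIF-2α R27E in 3 of 7 (3.63%) and HIF-2αDM in 4 of 7 (3.96%). IGFBP1 was called in all 4 of these comparisons, IGFBP3 and IGFBP5 in 3, IGFBP4 in 1, and IGFBP2, IGFBP6 and IGFBP7 in none. By unadjusted p under 0.05, the 4 comparisons held 5, 6, 5 and 4 members in either direction. DESeq2 called 2, 3, 4 and 4 members. Of 23410 genes, DESeq2 called 422, 394, 668 and 780 higher and 123, 62, 424 and 410 lower. At the unadjusted limit no share of all genes was counted, here or below, except between the batches. Without the 9 libraries numbered 3, HIF-1α exceeded HIF-1α R30E in 3 of 7. RNA of the other HIF-α gene moved with these comparisons. EPAS1 was higher in HIF-1α than in HIF-1α R30E (log2 1.15, adjusted p = 0.00046073) and HIF-1αDM (1.00, adjusted p = 0.0027946). HIF1A was higher in HIF-2α than in HIF-2α R27E (2.10, adjusted p = 5.1945e-07) and HIF-2αDM (2.24, adjusted p = 2.0081e-07). The part of these differences in the IGFBP values was not tested.

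**Figure D3:**
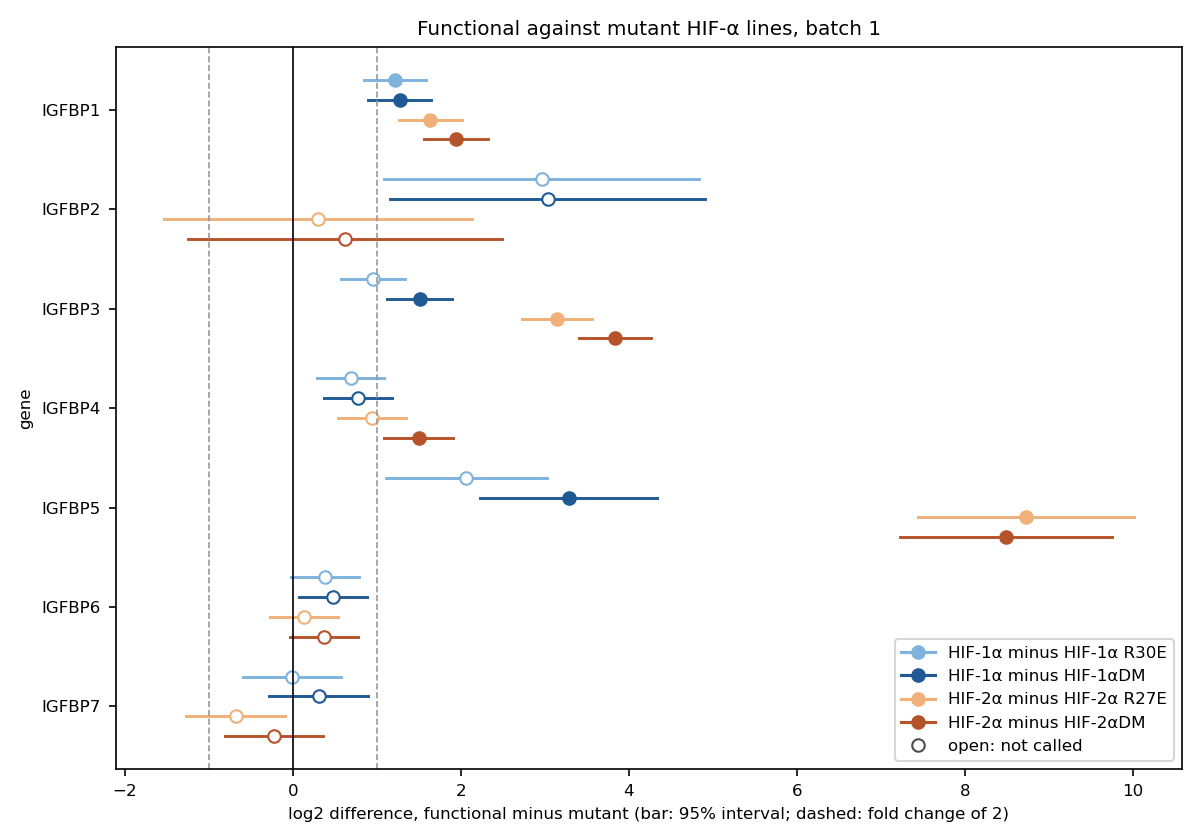
Log2 difference of functional HIF-1α and HIF-2α over their DNA-binding and dimerization mutants in batch 1, for each IGFBP gene, with 95% intervals and filled points where called. IGFBP5 differs most over the HIF-2α mutants, at 8.72 and 8.49, and IGFBP6 and IGFBP7 have no filled point.

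IGFBP3 had 64180, 62710 and 56917 normalised counts in HIF-2α R27E, all above the WT libraries and 1.996-fold above their mean. HIF-2αDM held 37200, 38986 and 37783 and stood nearer WT, at 1.24-fold. Functional HIF-2α exceeded them 8.84-fold (log2 3.14, SE 0.21, adjusted p = 7.3537e-11) and 14.3-fold (log2 3.83, SE 0.22, adjusted p = 2.3694e-12). HIF-1α R30E held 60182, 65473 and 65557 and did not overlap HIF-1α. The difference of 0.95 (adjusted p = 0.0031407) was under the fold limit, and reached 1.16 without HIF-1α replicate 3. Over HIF-1αDM, with 38550, 50594 and 40631, it was 1.51 (SE 0.20, adjusted p = 1.2978e-05).

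IGFBP5 in HIF-2α R27E (5.57, 0.963 and 3.92 normalised counts) and HIF-2αDM (4.63, 7.29 and 1.40) overlapped WT. The functional protein exceeded the 2 mutants by 8.72 (SE 0.66, adjusted p = 1.1252e-09) and 8.49 (SE 0.65, adjusted p = 9.7161e-10) on the log2 scale. The HIF-1α mutants were less low, with 14.8, 31.1 and 23.9 in HIF-1α R30E and 8.96, 17.6 and 4.19 in HIF-1αDM. HIF-1α exceeded HIF-1αDM by 3.28 (SE 0.53, adjusted p = 0.00035266), and its 2.07 over R30E was not called (adjusted p = 0.013231) although the libraries did not overlap. DESeq2 (adjusted p = 6.4205e-05) and the fit with no filter on low counts (5.0887e-07) were among the alternatives that called it.

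IGFBP1 had 979, 654 and 1048 normalised counts in HIF-1α R30E, 718, 861 and 1006 in HIF-1αDM, 759, 985 and 1335 in HIF-2α R27E and 744, 888 and 866 in HIF-2αDM. Every mutant library was above every WT library and below every library of the functional protein. The functional protein exceeded its mutants by 1.22 (SE 0.19, adjusted p = 0.00011255) and 1.27 (SE 0.19, adjusted p = 8.4417e-05) for HIF-1α, and by 1.64 (SE 0.19, adjusted p = 7.8604e-07) and 1.94 (SE 0.19, adjusted p = 5.2094e-08) for HIF-2α. IGFBP4 fell between in the mutants, with 1222 ± 166 in HIF-1α R30E, 1148 ± 245 in HIF-1αDM, 990 ± 282 in HIF-2α R27E and 673 ± 121 in HIF-2αDM. It was called over HIF-2αDM (log2 1.50, SE 0.21, adjusted p = 1.0878e-05), while the difference over HIF-2α R27E was 0.94 (adjusted p = 0.0028844) and those over the HIF-1α mutants were 0.69 and 0.78. The difference over HIF-2α R27E passed the fold limit without HIF-2α R27E replicate 2 (1.02) or 3 (1.14).

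Some mutant lines also stood above WT. In HIF-1α R30E 4 of 7 members were called higher (2.04% of all genes) and in HIF-1αDM 1 of 7 (0.453%). In HIF-2α R27E 1 of 7 was called higher (0.449%) and in HIF-2αDM 0 of 7 (0.44%). With only the groups compared in the fit, HIF-1α R30E kept 2 of its 4 calls (IGFBP4 and IGFBP6) and HIF-2α R27E had 0, and the same held without the 9 libraries numbered 3. Over all genes, those called higher in HIF-2α R27E went from 105 to 2 and to 76 in these fits. In HIF-2αDM, 3 members had an unadjusted p under 0.05 in edgeR and DESeq2 called 0. All 7 members had a positive log2 change in each of these 4 lines, with medians of 1.05, 0.95, 0.86 and 0.50 beside -0.04, 0, 0.00 and -0.01 for all genes. IGFBP4 was called in 3 lines, at 1.37 in HIF-1α R30E (SE 0.21, adjusted p = 6.772e-05), 1.28 in HIF-1αDM (adjusted p = 0.00078996) and 1.07 in HIF-2α R27E (adjusted p = 0.0055557). The call in HIF-1αDM was lost without WT replicate 1 (1.12, adjusted p = 0.018103) or HIF-1αDM replicate 2 (1.13, adjusted p = 0.012339). In HIF-2α R27E it was lost in 5 of 6 fits that left out 1 library, where the change ran from 0.87 to 1.18.

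The other calls of HIF-1α R30E were IGFBP3 (log2 1.05, adjusted p = 0.00075866), IGFBP5 (2.76, adjusted p = 0.007673) and IGFBP6 (1.05, adjusted p = 0.0015651). IGFBP3 fell under the limit without WT replicate 3 (0.90, adjusted p = 0.011221). IGFBP5 was called in 2 of 6 leave-one-out fits and IGFBP6 in 3 of 6. For IGFBP5 the lost fits left out WT replicate 1 or 3 (2.44 and 2.21) or R30E replicate 2 or 3 (2.50 and 2.75), and for IGFBP6 WT replicate 1 or 2 (1.00 and 1.04) or R30E replicate 3 (0.97). The summed IGFBP5 reads of HIF-1α R30E were 7.36 times those of WT (95% counting interval 3.96 to 14.9). IGFBP3 in HIF-2α R27E stood at log2 1.00 (adjusted p = 0.0059241), a fold of 1.996, just under the limit, and among the fits without 1 library it passed without WT replicate 1 (1.15).

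The knock-in clones show the family with the tag on the endogenous proteins and no transgene. HIF-2α KIN raised 1 of 7 members (2.35% of all genes called higher) and HIF-1β KIN 0 of 7 (0.393%, with 1 member at an unadjusted p under 0.05 and 0 called by DESeq2). The member that rose was IGFBP6, with 11192, 6794 and 9491 normalised counts against 3464, 3652 and 3983 in WT (log2 1.31, SE 0.21, adjusted p = 8.2868e-05). HIF-1β KIN held 5275, 4503 and 4870 IGFBP6 counts, also above WT without overlap. EPAS1 was lower in HIF-2α KIN, at 6177 against 14498 in WT (log2 -1.23, adjusted p = 0.00010106), and its part in these values was not tested.

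IGFBP3 in the clones, at 39816 ± 4966 normalised counts (HIF-1β KIN) and 36634 ± 6179 (HIF-2α KIN), overlapped WT. IGFBP5 had 0 reads in each of the 3 HIF-2α KIN libraries, a count that allows up to 3 reads per library, against 2, 9 and 1 reads in WT, and the difference was not called (adjusted p = 0.06877), though it was with no filter on low counts (0.0065667). IGFBP1 in HIF-1β KIN, at 393, 391 and 448, lay below all WT libraries, with a log2 difference of -0.52 that was not called (adjusted p = 0.17397). Between the clones 0 of 7 members were called (2.45% of all genes in either direction) by edgeR or DESeq2, with 3 at an unadjusted p under 0.05. IGFBP6 differed by 0.91 (adjusted p = 0.0061879), under the fold limit, and was called at 1.07 (adjusted p = 0.0023948) when HIF-2α KIN replicate 2 was left out.

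The 4 transgene lines of batch 2 were compared by the parts of HIF-α that their transgenes held. IGFBP3 in HIF-1α/2α held 492710, 485800 and 463110 normalised counts, and in HIF-2α/1α 98540, 93904 and 110500. The protein with the HIF-2α IDR thus lay near HIF-2α and the one with the HIF-1α IDR near HIF-1α, though no groups overlapped. On the HIF-1α structured domain, IGFBP3 was 1.97 higher (log2) with the HIF-2α IDR than with that of HIF-1α (SE 0.07, adjusted p = 2.1872e-26). On that of HIF-2α it was 2.95 higher (SE 0.07, adjusted p = 3.6563e-32). Between the structured domains (HIF-2α minus HIF-1α) it differed by -0.28 with the HIF-1α IDR (adjusted p = 0.0076979). With the HIF-2α IDR it differed by 0.70 (adjusted p = 3.798e-11), and both values were under the fold limit.

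IGFBP5 followed the same order with a larger gap. HIF-1α/2α held 328, 412 and 232 normalised counts and HIF-2α/1α 48.5, 41.4 and 56.6, against 1628, 1534 and 1174 in HIF-2α. HIF-1α/2α lay above both lines with the HIF-1α IDR and below HIF-2α, without overlap. IGFBP5 was 2.07 higher with the HIF-2α IDR on the HIF-1α structured domain (SE 0.18, adjusted p = 1.17e-12). On that of HIF-2α it was 4.90 higher (SE 0.20, adjusted p = 2.5256e-24). With the HIF-2α IDR, the HIF-2α structured domain gave 2.16 more than that of HIF-1α (SE 0.16, adjusted p = 1.0183e-14). With the HIF-1α IDR it gave -0.67 (adjusted p = 0.08881).

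Averaged over both structured domains, the IDR effect (HIF-2α minus HIF-1α IDR) was called in 2 of 7 members, IGFBP3 at 2.46 (SE 0.05, adjusted p = 8.1838e-36) and IGFBP5 at 3.48 (SE 0.13, adjusted p = 2.0792e-25), where 4.41% of all genes were called. The structured-domain effect was called in 0 of 7 (1.04% of all genes), with 5 members at an unadjusted p under 0.05 and 0 called by DESeq2. Its values were 0.21 for IGFBP3 (95% interval 0.12 to 0.30), 0.74 for IGFBP5 (0.47 to 1.02) and 0.41 for IGFBP1 (0.27 to 0.55). The interaction, the IDR effect on the HIF-2α structured domain minus that on the HIF-1α one, was called in 2 of 7 (1.18%), IGFBP5 at 2.83 (SE 0.27, adjusted p = 1.8532e-10) and IGFBP1 at 1.36 (SE 0.14, adjusted p = 2.4268e-09). For IGFBP3 it was 0.98 (adjusted p = 2.5631e-10), under the fold limit, and passed it without HIF-2α/1α replicate 3 (1.05) or HIF-2α replicate 3 (1.04). HIF RNA differed between these lines too, with an IDR effect of 1.34 on EPAS1 and -1.90 on HIF1A. For HIF1A the structured-domain effect was -1.92 and the interaction -2.93. HIF-1α and both chimeras carry HIF1A sequence, and HIF-2α and both chimeras EPAS1 sequence. These values thus include which transgene each line holds, and the part of HIF RNA in the IGFBP effects was not tested.

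**Figure D4:**
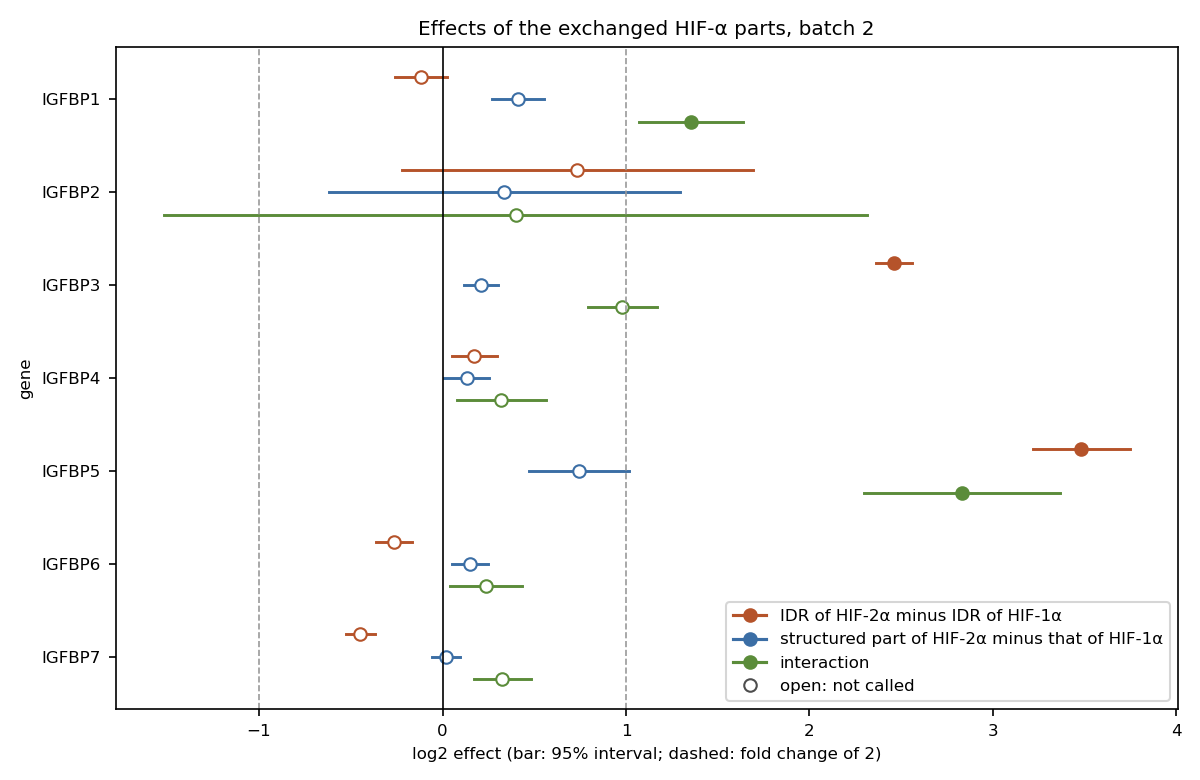
IDR effect, structured-domain effect and their interaction in batch 2 (log2, 95% intervals) for each IGFBP gene, filled where called. IGFBP3 and IGFBP5 have the largest IDR effects, at 2.46 and 3.48, and IGFBP1 and IGFBP5 have the called interactions.

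IGFBP1 behaved differently from IGFBP3 and IGFBP5. HIF-1α/2α held 1331, 1294 and 930 normalised counts, below all libraries of the other 3 transgene lines, and HIF-2α/1α held 1570, 1620 and 1951, overlapping HIF-1α. The HIF-2α IDR was associated with a difference of -0.80 on the HIF-1α structured domain (adjusted p = 2.47e-08) and of 0.56 on that of HIF-2α (adjusted p = 2.7083e-05), and the mean IDR effect of -0.12 was not called. HIF-2α exceeded HIF-1α/2α by 1.09 (SE 0.10, adjusted p = 1.9818e-11), which fell to 0.94 without HIF-1α/2α replicate 3. The IGFBP4 means in the 4 lines ran from 1171 to 1475 with an IDR effect of 0.17 (95% interval 0.05 to 0.30). The IDR effects on IGFBP6 and IGFBP7 were -0.26 and -0.45 (adjusted p = 3.298e-05 and 4.8791e-13), both under the fold limit.

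Line by line, 2 of 7 members were called for HIF-1α/2α against HIF-1α (4.65% of all genes), 2 for HIF-2α against HIF-2α/1α (3.19%) and 2 for HIF-2α against HIF-1α/2α (2.09%). The first 2 comparisons called IGFBP3 and IGFBP5, and the last called IGFBP1 and IGFBP5. Between HIF-2α/1α and HIF-1α, which share the HIF-1α IDR, 0 of 7 were called (0.543%) by edgeR or DESeq2, with 4 members at an unadjusted p under 0.05, all lower in HIF-2α/1α.

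WT, HIF-1α and HIF-2α were measured in both batches, so the response could be compared between them in 1 fit of 18 libraries. No member's response differed at the call limits, with 0 of 7 for HIF-1α (0.00374% of 26763 genes) and 0 of 7 for HIF-2α (0%), and DESeq2 called 0 as well. At an unadjusted p under 0.05 stood 2 members for each, among 1455 and 2855 of all genes. For HIF-1α these were IGFBP4 at -0.81 (95% interval -1.19 to -0.43) and IGFBP6 at -0.63 (-0.95 to -0.30), and for HIF-2α IGFBP3 at 0.63 (0.12 to 1.14) and IGFBP4 at -0.44 (-0.82 to -0.07). The gene called between batches for HIF-1α was HIF1A itself, with a response 1.68 larger in batch 2 (adjusted p = 0.0063387).

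As a share of the family's summed RPKM, IGFBP3 made up 48.4% ± 3.04 in WT of batch 1, 61.8% ± 5.45 in HIF-1α and 90.3% ± 1.07 in HIF-2α, while the sum rose from 206 to 643 and 1953. In batch 2 it made up 50.8% ± 3.06 in WT, 70.1% ± 0.696 in HIF-1α, 67.4% ± 1.32 in HIF-2α/1α, 94.4% ± 0.149 in HIF-2α and 92.9% ± 0.189 in HIF-1α/2α. Its share was thus 90.3% or more in HIF-2α of both batches and in HIF-1α/2α. The HIF-2α mutants, whose IDR is unchanged, stood at 51.8% ± 8.36 (HIF-2α R27E) and 45.8% ± 2.81 (HIF-2αDM). HIF-2α KIN, with the tagged endogenous protein, stood at 40.6% ± 5.82. IGFBP7 went from 30.6% of the family in WT to 2.74% in HIF-2α of batch 2, although its own count was higher. IGFBP5 remained a minor part at 0.181% in HIF-2α of batch 1, despite the size of its change. In bulk RNA, fewer cells with a transcript and less transcript per cell cannot be told apart.

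Beyond the binding proteins, 27 other genes of the IGF axis were read from a list of ligands, receptors, adaptors, proteases and their inhibitors. IGF1, IGF2, INS and IRS4 did not pass the filter on low counts in either batch, and 20 genes were tested in batch 1 and 23 in batch 2. With HIF-1α, 2 were called higher and 2 lower in each batch, where 3.27% and 3.9% of all genes were called higher and 0.517% and 0.484% lower. With HIF-2α, 4 were called higher and 1 lower in each, beside 3.78% and 5.45% of all genes higher and 1.94% and 2.13% lower. HTRA1, a secreted protease that cleaves IGFBPs, was, like IGFBP3, far higher in HIF-2α and HIF-1α/2α than in HIF-1α and HIF-2α/1α. It was also called higher in HIF-2α than in HIF-2α R27E and HIF-2αDM, whose IDR is unchanged. It had 1588 ± 210 normalised counts in WT of batch 1, 3087 ± 618 in HIF-1α and 24009 ± 7153 in HIF-2α (log2 3.92 from WT). In batch 2 it had 3080 in WT, 5163 in HIF-1α, 5987 in HIF-2α/1α, 38953 in HIF-2α and 40517 in HIF-1α/2α, and its IDR effect was 2.84.

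STC1, an inhibitor of the pappalysins, rose with both proteins, from 211 ± 50.1 to 1907 ± 398 in HIF-1α and 1535 ± 307 in HIF-2α of batch 1 (log2 3.18 and 2.86). In batch 2 its changes were 3.35 and 3.33. LRP1, a cell-surface receptor to which IGFBP3 binds, rose by 1.96 and 2.17 in batch 1 and by 1.62 and 2.14 in batch 2. PAPPA, the protease of IGFBP4 and IGFBP5, fell by 2.36 in HIF-1α and by 3.66 in HIF-2α of batch 1, and by 1.29 and 2.15 in batch 2, from low levels of 90.8 and 123 counts in WT. Its relative PAPPA2 fell by 1.86 and 1.84 in HIF-1α of the 2 batches. IRS2, an adaptor of the insulin and IGF1 receptors, rose by 1.86 in HIF-2α of batch 1. In batch 2 it rose by 1.44 and 1.42 in HIF-2α and HIF-1α/2α, with an IDR effect of 1.35.

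The remaining calls of the axis list were few. In HIF-1α/2α 6 genes were called higher and 2 lower (5.1% and 2.68% of all genes), adding GRB10 (log2 1.00) and INSR, the insulin receptor gene, which had 53.5 ± 16.8 normalised counts there and 0 in all 3 WT libraries of batch 2. HIF-2α/1α had the calls of HIF-1α, 2 higher (LRP1, STC1) and 2 lower (PAPPA, PAPPA2), beside 2.98% and 0.508% of all genes. In HIF-2α KIN 5 genes were called lower (HTRA1, LRP1, PAPPA2, STC1 and STC2), in HIF-1β KIN 1 (PAPPA2) and in HIF-1α R30E 2 (PAPPA2 and STC2), where 1.79%, 0.982% and 0.572% of all genes were called lower. HIF-1αDM, HIF-2α R27E and HIF-2αDM had 0 calls by edgeR, with 6, 5 and 7 of 20 genes at an unadjusted p under 0.05, and 0.00427%, 0.047% and 0.0342% of all genes were called lower there.

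**Figure D5:**
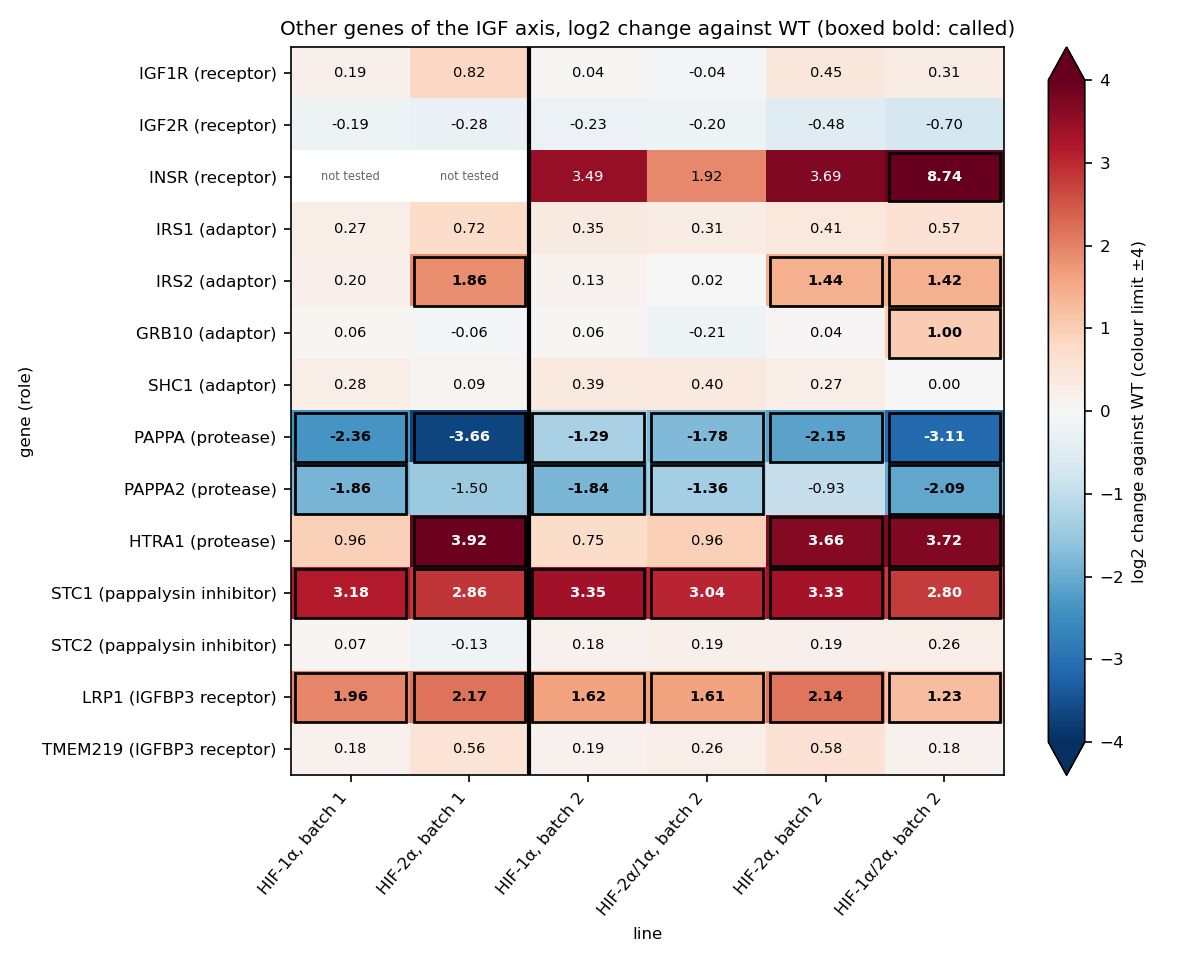
Log2 change against WT of 14 IGF axis genes (rows, with their role) in the 6 lines with a non-mutant HIF-α or chimera (columns, 2 of batch 1 and 4 of batch 2), with called changes boxed. HTRA1 and IRS2 are boxed in the lines with the HIF-2α IDR, STC1, LRP1 and PAPPA in all 6, PAPPA being lower, and the INSR values are no fold estimates because WT held 0 reads.

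Across the 14 groups, the pattern of the group means (log2 CPM, centred within each batch) was compared with that of 12461 genes. The closest to IGFBP3 were PGF (Pearson r = 0.980), GFRA2 (0.978) and SELENON (0.978), and to IGFBP5 they were SLC8A1 (0.985), C11orf49 (0.974) and FIBCD1 (0.963). IGFBP1 was most like LRRC15 (0.970), KLHL22 (0.960) and TCEA2 (0.957), and IGFBP4 most like PLPP7 (0.972), FBN1 (0.971) and MANBA (0.961). For IGFBP6 they were GLT8D2 (0.975), GAA (0.953) and NXNL2 (0.949), and for IGFBP2, among 12462 genes, SMIM14 led at 0.913. Within the family, IGFBP3 and IGFBP5 were the closest pair (r = 0.951) and IGFBP1 and IGFBP4 the next (0.911), while IGFBP7 was least like IGFBP3 (0.209) and IGFBP5 (0.232). The groups share control libraries and transgenes, so these values describe the pattern and carry no test.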

How the data were processed

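The deposited tables, 1 per RNA-seq sample, hold raw counts of reads per gene. Per the labels and the study's methods, the authors aligned reads to hg38 with STAR, kept unique alignments and counted them without regard to strand with HTSeq (GENCODE genes). Versions differ between sources and are not given here. Batch 1 used column-purified RNA and a TruSeq-based kit, and batch 2 TRIzol RNA, DNase and a NEBNext kit. Depth ran from 42377599 to 109642159 counts per library.

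Each batch was fitted with edgeR 4.0.16 (limma 3.58.1, R 4.3.3) by the quasi-likelihood test with TMM factors, after a filter at a mean normalised count of 0.5, leaving 23410, 28724 and, for the 18 libraries of both batches, 26763 of 60609 genes. p-values were adjusted by Benjamini-Hochberg over all genes of a fit. Counts of members or axis genes at an unadjusted p under 0.05 have no share of all genes beside them, except between the batches. A call needed an adjusted p of at most 0.01 and a fold of at least 2, the thresholds of the study. Replicates are biological per the study's methods, and p-values measure their spread, estimated from all libraries of a fit. The methods describe no independently made lines of the same transgene. The p-values are thus not taken to cover a spread between such lines. Normalised counts are counts divided by the TMM-scaled library size relative to its batch mean. RPKM used union exon lengths of GENCODE v44. Intervals on ratios of summed reads are exact binomial and, like the floor of 3 counts, cover counting error only. Promoters were RefSeq windows of GRCh38.p14, with entries for 5 of 7 members. IGFBP1 and IGFBP7 were not matched.

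Named genes were the 7 members, the listed IGF axis genes called against WT or in the IDR effect, the HIF subunits, and for each member called against WT the 3 genes most like it among genes with a mean normalised count of at least 50. The members, lists and comparisons were chosen with earlier results of these data known. Alternatives were RLE size factors, no filter, DESeq2 1.42.0, an adjusted p of at most 0.05 with no fold limit, only the groups compared, a replicate block, leaving out each library, and, chosen after seeing the data, batch 1 without its 9 libraries numbered 3. The fits were also run on simulated counts, drawn independently for each library. Those counts hold no deviation shared by libraries of the same number, so the run cannot check the batch 1 fits for it.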

Additional observations from a re-analysis of the deposited data

Results flagged for a closer look

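For 2 members the effect of the HIF-2α IDR differed between the structured domains of HIF-2α and HIF-1α by the test of the difference itself. IGFBP1 gave an interaction of 1.36 on the log2 scale (SE 0.14, edgeR's quasi-likelihood test, adjusted p = 2.4268e-09), with the IDR effect at -0.80 on the HIF-1α structured domain and 0.56 on that of HIF-2α. IGFBP5 gave 2.83 (SE 0.27, adjusted p = 1.8532e-10), with the IDR effect at 2.07 and 4.90.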

How the results depend on the processing

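Of 109 changes of single members in single comparisons, with 1457 alternative values in all, 52 of the 60 called changes were called in every alternative and none of the 60 changed sign. Among the uncalled, the HIF-2α minus HIF-1α difference of IGFBP4 in batch 1 ran from -0.10 to 0.0049 over the fits without 1 library, and the change of IGFBP7 in HIF-2α of batch 1 was -0.083 without the 9 libraries numbered 3. With an adjusted p of at most 0.05 and no fold limit, calls rose to 28 of 28 against WT in batch 2 (18 in the report). They rose to 22 of 35 between the 4 lines (8) and 13 of 21 for the IDR, structured-domain and interaction effects (4). Between the knock-in clones they rose to 1 of 7 (0). How many of all genes met this looser rule was not counted, so these counts are no result about the members. Leaving out 1 library gave 13 to 18 calls against WT in batch 1 (17 in the report). It gave 13 to 14 for functional against mutant HIF-α together with HIF-2α against HIF-1α (13). Between the clones it gave 0 to 1 (1 without HIF-2α KIN replicate 2). In batch 2 it gave 17 to 20 against WT, 7 to 8 between the 4 lines and 4 to 5 for the effects. For the batch comparison it gave 0. Without those 9 libraries, batch 1 gave 14 calls against WT and 16 for functional against mutant HIF-α together with HIF-2α against HIF-1α. DESeq2 gave 18, 15 and 0 calls in batch 1 and 18, 8 and 4 in batch 2. Libraries with the same number in batch 1 deviated together (mean r = 0.265), with r over 0.1 in 21 of 24 pairs (lowest 0.0687). In batch 2 they did not (0 of 12, mean r = 0.00268). The main fits did not model the number, so those of batch 1 leave out this shared deviation. The replicate block gave 18, 14 and 0 calls in batch 1, 20, 8 and 4 in batch 2 and 0 between batches. With the replicate block IGFBP3 was called in HIF-2α R27E against WT (1.01), IGFBP5 in HIF-1α over HIF-1α R30E (2.06), and IGFBP2 in HIF-1α and HIF-2α/1α of batch 2 (2.58 and 2.82). IGFBP2 and IGFBP5 in WT rest on at most 16 reads per batch, which limits their fold changes. The cause of these shifts was not tested.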
